A study of Homo sapiens with 2 samples.

Results

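RNA levels of 32 genes of the endoplasmic reticulum (ER) unfolded protein response were compared between XY101-treated and vehicle-treated HUCCT-1 cells. HUCCT-1 is an established human intrahepatic cholangiocarcinoma line, and XY101 is an antagonist of the nuclear receptor RORγ. The XY101 group is 1 library of cells given 5 µM of the compound for 48 h, and the vehicle group is 1 library of the same line kept with vehicle over the same time. The members were taken by gene symbol from a list of names, with no threshold on measured values, and all 32 were found among the 16654 genes with a value in both libraries. Values are FPKM, which express the fragments of a gene relative to the length of its transcript and to all mapped fragments of that library. With 1 library per group there was no replicate spread, so no test was run and every difference describes these libraries alone. In bulk RNA, a smaller share of cells using a gene and less RNA per cell cannot be told apart.

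The ER folds and modifies the proteins that a cell secretes or places in its membranes. When unfolded chains accumulate there, the membrane sensors IRE1 (ERN1), PERK (EIF2AK3) and ATF6 are released from the chaperone BiP (HSPA5) and signal to the nucleus and the ribosome. IRE1 splices XBP1 mRNA, ATF6 is cut to free a transcription factor, and PERK slows translation and raises ATF4, after which genes for chaperones, disulfide isomerases, the translocon and ER-associated degradation are transcribed more.

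Members and gene lists were described by their log2 ratio, log2((XY101 + 0.1)/(vehicle + 0.1)), among the 10894 genes whose mean FPKM over both libraries was at least 1. A gene was counted as higher or lower at a ratio of 1.5-fold. No member reached it. Of 31 members that passed the mean FPKM filter, 0 were at least 1.5-fold higher, against 4.90% of all genes, and 0 were at least 1.5-fold lower, against 2.32%. A mean FPKM of at least 5 was passed by 30 of these members and by 7634 of the 10894 genes. At that level 0 members were called, against 3.01% of genes higher and 1.66% lower. Of the 31 members 29 differed by less than 1.25-fold between the libraries, against 73.6% of all genes, and SDF2L1 and SSR1 were outside. The share of genes within 1.25-fold was not computed at a mean FPKM of at least 5. SDF2L1 was outside under each scaling tried, whereas SSR1 was inside when ratios were centred on the median gene, where MANF and CALR were outside. Before centring, ratios were above 0 in 18 members and below 0 in 13, against 64.4% of all genes above 0. The median log2 ratio of the members was 0.02, with quartiles of -0.06 and 0.15, beside a median of 0.09 and quartiles of -0.08 and 0.26 over all genes. Relative to the median gene, 11 members were above and 20 below. The members' FPKM summed to 5815.93 with XY101 and 5969.9 with vehicle, which was 0.698% and 0.696% of each library's total.

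Of 8 biliary and epithelial markers, 7 had a mean FPKM of at least 1, and SPP1 was at 0 FPKM with XY101 and 0.05 FPKM with vehicle. The keratin genes KRT7 (4184.91 FPKM with XY101 and 5080.23 FPKM with vehicle) and KRT19 (1699.06 and 1909.49 FPKM) were high, and the leukocyte gene PTPRC (0 and 0.02 FPKM) and the fibroblast gene DCN (0 and 0.03 FPKM) were at or near 0. Among 6 markers of other cells, which summed to 57.59 FPKM with XY101 and 70.93 FPKM with vehicle, CD68 (47.17 and 63.58 FPKM) and COL1A1 (9.82 and 7.01 FPKM) were the ones above 1 FPKM. EPCAM was 275.12 FPKM with XY101 and 254.18 FPKM with vehicle, and CDH1 was 96.19 and 81.93 FPKM. The 8 biliary and epithelial markers summed to 8422.42 FPKM with XY101 and 10037.9 FPKM with vehicle. SOX9, a biliary transcription factor gene, was the marker at least 1.5-fold lower, at 7.41 FPKM with XY101 and 14.61 FPKM with vehicle. The spacing of low FPKM values put the depth at about 17500000 fragments for XY101 and 18000000 for vehicle. Counting intervals at 95% were derived from these depths, and they cover counting error only, not the variation between cultures. Of the 32 members, 9 had an interval wholly above 0, 5 wholly below, and 18 held 0. Against the median gene, at 0.09, the balance was the other way, with 5 intervals wholly above it, 11 wholly below and 16 that held it.

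The response acts through short promoter elements, so the member promoters were searched in RefSeq windows of 250 bases before and 50 after each annotated start (GRCh38.p14), on both strands. The ER stress response element (ERSE) was searched as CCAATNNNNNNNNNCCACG, ERSE-II as ATTGGNCCACG and the unfolded protein response element (UPRE) as TGACGTGG. Of the 32 members, 30 had a window, and DERL1 and PDIA3 were not analysed here. The ERSE letters occurred in 8 members (XBP1, HSPA5, HSP90B1, CRELD2, CALR, CANX, PDIA6 and ERO1B), against 0.0916% of all 27305 genes with a window. ERSE-II letters occurred in HYOU1, SDF2L1 and HERPUD1, against 0.0696% of genes, and UPRE letters in HYOU1 alone among members, against 0.927%. ERSE was defined on promoters of HSPA5 and related chaperone genes, so its frequency among members is background and not a result. A match is a description of the letters and not a shown binding site. Matches were exact outside the free bases, so copies of an element with other letters in a box were not counted.

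The stretch upstream of the HSPA5 start is shown because HSPA5 is the standard readout of the response. It covers chr9:125241344-125241473 (GRCh38.p14, minus strand) and ends at the base before the start. Capitals mark the CCAAT and CCACG boxes. The 130 bases, read 5′ to 3′, hold 2 CCAAT boxes and 1 CCACG box. The downstream CCAAT box with the CCACG box makes the exact match to the ERSE letters, at -66 to -48 from the start. At the same spacing, the upstream CCAAT box is followed by ccaac in place of CCACG. Whether that stretch acts as an ERSE was not examined here.
HSPA5 promoter: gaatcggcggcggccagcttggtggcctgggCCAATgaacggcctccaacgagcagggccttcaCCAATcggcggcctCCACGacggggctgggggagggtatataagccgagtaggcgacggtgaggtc

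The ERSE of 4 other members is shown because CALR (lower with XY101) and CANX (higher) differed in direction. HSP90B1 and XBP1 had log2 ratios of 0.10, which were 0.01 relative to the median gene. Of the 10 measured members with ERSE or ERSE-II, 4 had ratios above 0 and 6 below. Capitals mark the CCAAT and CCACG boxes or, on the other strand, CGTGG and ATTGG. The sequences lie at chr19:12938376-12938410 (plus strand of CALR), chr5:179698770-179698804 (plus strand, CANX), chr12:103930208-103930242 (plus strand, the upstream of the HSP90B1 pair of elements) and chr22:28800595-28800629 (minus strand, XBP1), all in GRCh38.p14.
CALR ERSE: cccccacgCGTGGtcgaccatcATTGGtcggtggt
CANX ERSE: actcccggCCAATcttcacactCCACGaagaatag
HSP90B1 ERSE: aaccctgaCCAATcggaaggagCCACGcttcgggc
XBP1 ERSE: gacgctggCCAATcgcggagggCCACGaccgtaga

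The ERSE-II of the 3 members that hold it is shown because SDF2L1 had the lowest ratio of all members. Capitals mark ATTGG and CCACG or, on the other strand, CGTGG and CCAAT. They lie at chr22:21642106-21642132 (plus strand, SDF2L1), chr16:56932017-56932043 (plus strand, HERPUD1) and chr11:119057266-119057292 (minus strand, HYOU1), in GRCh38.p14. HYOU1 held ERSE-II at 2 places, and its UPRE letters overlapped the upstream of these.
SDF2L1 ERSE-II: ctcggaagCGTGGaCCAATcaaaaccc
HERPUD1 ERSE-II: ggacgccgATTGGgCCACGttgggaga
HYOU1 ERSE-II: gcctgggaCGTGGtCCAATgagtacgc

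The sensors showed little difference. ATF6, the sensor that is cut in the Golgi, was 12.99 FPKM with XY101 and 13.13 FPKM with vehicle, a log2 ratio of -0.02. ERN1, which encodes the kinase and ribonuclease IRE1, was 6.78 FPKM with XY101 and 7.33 FPKM with vehicle (-0.11). EIF2AK3, the PERK gene, was 4.85 FPKM with XY101 and 4.57 FPKM with vehicle (0.08). The counting intervals of these 3 members held 0. XBP1, the transcription factor gene whose mRNA IRE1 splices, was much higher than the sensors, at 89.53 FPKM with XY101 and 83.46 FPKM with vehicle (0.10, interval 0.02 to 0.18), which was 0.01 relative to the median gene. Gene-level FPKM cannot separate the spliced from the unspliced XBP1 form, and the cutting of ATF6 and phosphorylation of PERK are not measured directly by these values.

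**Figure D1:**
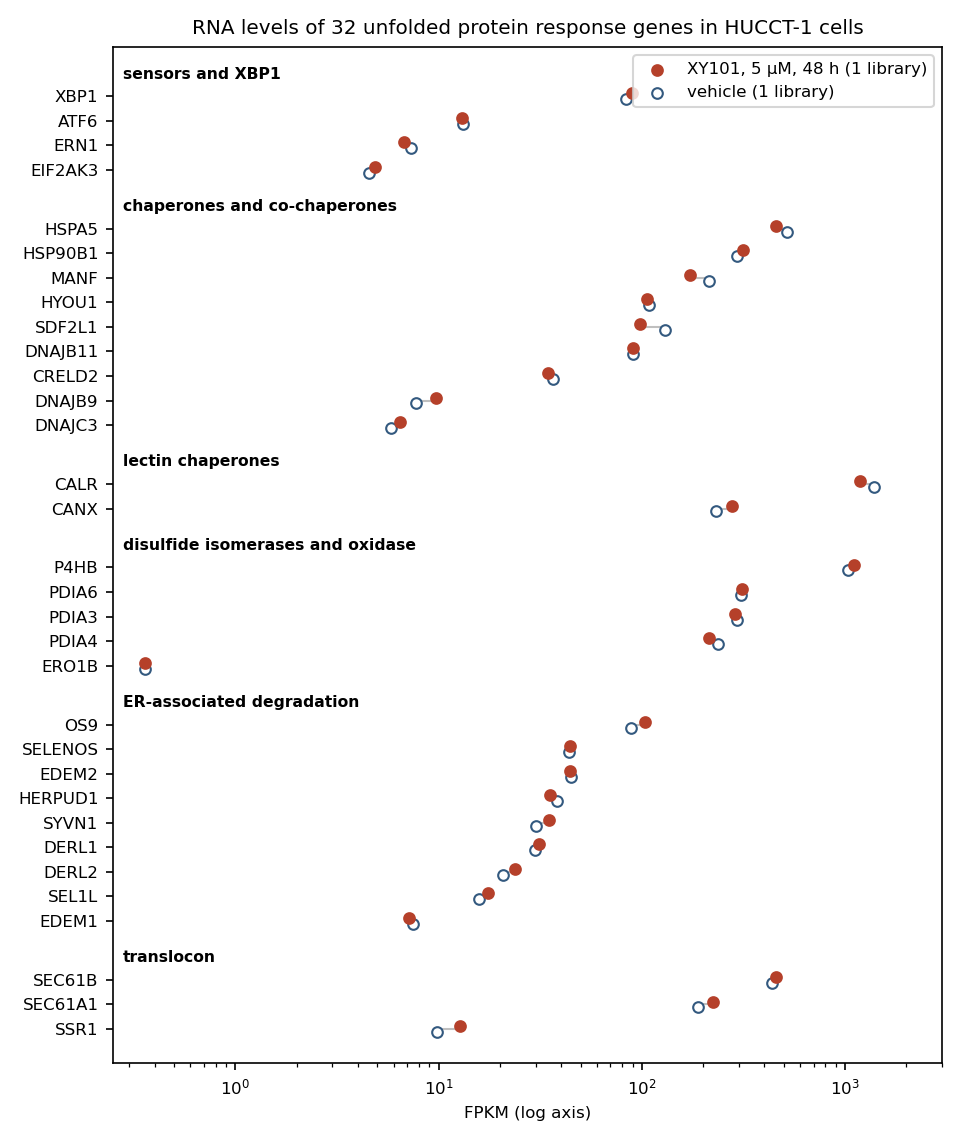
FPKM of each of the 32 members on a log axis, grouped by role, with filled points for the XY101 library and open points for the vehicle library. CALR and P4HB were the highest in both libraries, ERO1B lay at 0.36 FPKM in both, and the points of most genes nearly coincide.

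Among chaperones and their partners, the ratios spread on both sides of 0, with 4 of 9 members above and 5 below and a median of -0.02. Relative to the median gene, 3 of them lay above and 6 below. SDF2L1, a partner of the ER-resident J-domain proteins, was 98.47 FPKM with XY101 and 130.19 FPKM with vehicle, 1.32-fold lower (log2 ratio -0.40, interval -0.53 to -0.28). This was the lowest ratio among members, at percentile 5.04 of all genes. MANF, a secreted ER stress protein that binds BiP, was 173.17 FPKM with XY101 and 213.88 FPKM with vehicle (-0.30, interval -0.39 to -0.22). HSPA5, the gene of BiP, was 456.98 FPKM with XY101 and 518.32 FPKM with vehicle, 1.13-fold lower (-0.18, interval -0.20 to -0.16). These 3 members had counting intervals wholly below 0 and none was 1.5-fold lower.

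The other chaperone members were closer to equal or higher. HSP90B1, the gene of the ER HSP90 paralog GRP94, was 316.47 FPKM with XY101 and 295.01 FPKM with vehicle (0.10, interval 0.07 to 0.14). HYOU1, a large HSP70-type protein that acts as a nucleotide exchange factor for BiP, was 106.44 FPKM with XY101 and 108.27 FPKM with vehicle (-0.02). CRELD2, an ER stress-inducible secreted protein, was 34.67 FPKM with XY101 and 36.44 FPKM with vehicle (-0.07). The interval of HSP90B1 lay wholly above 0, though not with the shortest coding transcript (-0.0022 to 0.20), and those of HYOU1 and CRELD2 held 0. Relative to the median gene HSP90B1 was at 0.01, and within its group of transcript GC content at -0.04, so its direction rests on the scaling.

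The 3 J-domain co-chaperone genes of BiP had ratios above 0, as did 64.4% of all genes. Relative to the median gene, DNAJB9 was at 0.22, DNAJC3 at 0.06 and DNAJB11 at -0.08. Within groups of transcript GC content they were at 0.13, -0.02 and -0.06 in that order. DNAJB9, which helps BiP restrain IRE1, was 9.66 FPKM with XY101 and 7.77 FPKM with vehicle, 1.24-fold higher (0.31, interval 0.09 to 0.54). DNAJC3, which also binds unfolded chains, was 6.48 FPKM with XY101 and 5.8 FPKM with vehicle (0.16, interval -0.04 to 0.37). DNAJB11, a lumenal partner of BiP in folding, was 90.96 FPKM with XY101 and 90.23 FPKM with vehicle (0.01). Of these intervals, that of DNAJB9 lay wholly above 0 and the others held 0.

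**Figure D2:**
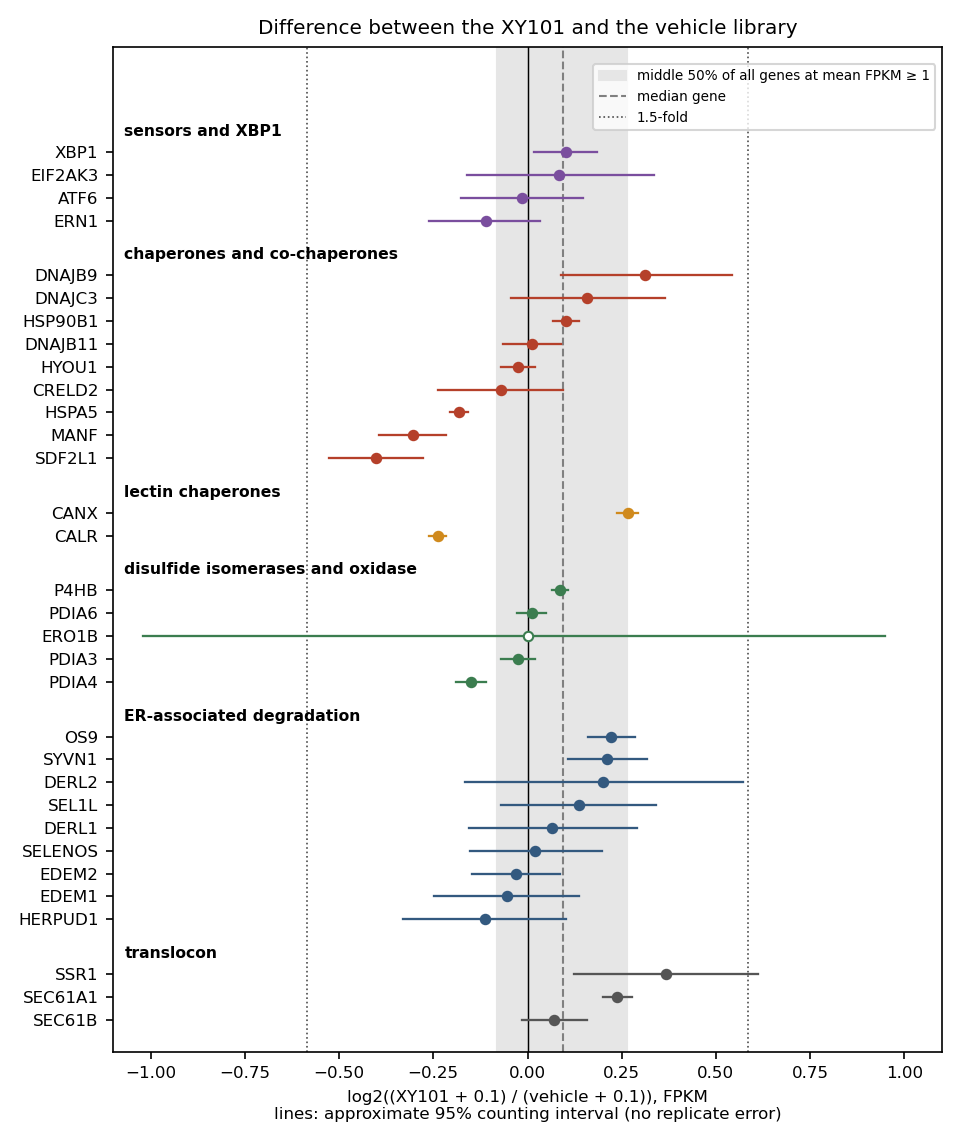
Log2 ratio of XY101 over vehicle for each member, grouped by role, with approximate 95% counting intervals, the middle 50% of all genes in grey, the median gene as a dashed line and 1.5-fold as dotted lines. All points lie inside the dotted lines, from -0.40 for SDF2L1 to 0.37 for SSR1, and the open point, ERO1B, is below the filter.

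The 2 lectin chaperones, which bind glycoproteins that carry a trimmed sugar chain, differed in opposite directions. CALR, the soluble lectin calreticulin, had the highest level of any member, at 1182.45 FPKM with XY101 and 1395.36 FPKM with vehicle, 1.18-fold lower (-0.24, interval -0.26 to -0.22). CANX, the membrane-anchored lectin calnexin, was 278.11 FPKM with XY101 and 231.32 FPKM with vehicle, 1.20-fold higher (0.27, interval 0.24 to 0.29). Each interval lay wholly on its side of 0, and the 2 promoters each hold an ERSE.

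The disulfide isomerase genes were the most abundant enzyme group and differed little. P4HB, the founding protein disulfide isomerase, was 1100.91 FPKM with XY101 and 1037.12 FPKM with vehicle (0.09, interval 0.07 to 0.11), which was -0.01 relative to the median gene. PDIA6, an isomerase that also binds the sensors, was 309.82 FPKM with XY101 and 307.43 FPKM with vehicle (0.01). PDIA3, the isomerase that works with the lectins, was 288.01 FPKM with XY101 and 293.03 FPKM with vehicle (-0.02). PDIA4 was the member of this group furthest from 0 in ratio. PDIA4, a multidomain isomerase, was 212.9 FPKM with XY101 and 236.26 FPKM with vehicle (-0.15, interval -0.19 to -0.11). ERO1B, an oxidase that recharges the isomerases, was 0.36 FPKM in each library, near 19 fragments with XY101 and 20 with vehicle, and its interval of -1.02 to 0.95 leaves the direction undetectable at this depth.

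In ER-associated degradation, which returns misfolded proteins to the cytosol for the proteasome, 6 of 9 members had ratios above 0 and the median was 0.07. Over all genes 64.4% were above 0, and 4 of these members lay above the median gene and 5 below. OS9, a lectin that delivers misfolded glycoproteins to the ligase, was 103.57 FPKM with XY101 and 88.77 FPKM with vehicle (0.22, interval 0.16 to 0.28). SYVN1, the gene of the membrane ubiquitin ligase HRD1, was 34.74 FPKM with XY101 and 30 FPKM with vehicle (0.21, interval 0.11 to 0.32). SEL1L, the partner that stabilizes HRD1, was 17.45 FPKM with XY101 and 15.85 FPKM with vehicle (0.14, interval -0.07 to 0.34). The intervals of OS9 and SYVN1 lay wholly above 0, and that of SEL1L held 0. With the shortest coding transcript the interval of SYVN1 was -0.03 to 0.46.

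DERL2, DERL1 and SELENOS, which act at the export channel, had ratios above 0, as did 64.4% of all genes. Relative to the median gene they were at 0.11, -0.03 and -0.07 in that order. DERL2, a derlin, was 23.78 FPKM with XY101 and 20.67 FPKM with vehicle (0.20, interval -0.17 to 0.57). DERL1, a related derlin, was 31.16 FPKM with XY101 and 29.76 FPKM with vehicle (0.07). SELENOS, a selenoprotein that recruits the p97 ATPase, was 44.37 FPKM with XY101 and 43.73 FPKM with vehicle (0.02). The counting intervals of these members held 0, and with the longest coding transcript those of DERL2 (0.10 to 0.31) and SEL1L (0.05 to 0.22) did not.

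The 3 members of this role with ratios below 0 were EDEM1, EDEM2 and HERPUD1. EDEM2, which starts mannose trimming, was 44.14 FPKM with XY101 and 45.06 FPKM with vehicle (-0.03). EDEM1, which acts on trimmed glycoproteins, was 7.17 FPKM with XY101 and 7.45 FPKM with vehicle (-0.05). HERPUD1, a ubiquitin-like membrane protein that gathers the ligase complex, was 35.17 FPKM with XY101 and 38.05 FPKM with vehicle (-0.11, interval -0.33 to 0.10). All 3 intervals held 0, and with the longest coding transcript that of HERPUD1 was -0.21 to -0.02.

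The 3 translocon members belong to the channel for chains entering the ER or to the complex associated with it. They had the highest median of any role, at 0.24, with 2 above the median gene and 1 below. SSR1, a subunit of the translocon-associated protein complex, was 12.7 FPKM with XY101 and 9.82 FPKM with vehicle, 1.29-fold higher (0.37, interval 0.12 to 0.61). This was the highest ratio among members, at percentile 85.1 of all genes. With the shortest coding transcript in place of the median one, the interval of SSR1 was -0.13 to 0.89. SEC61A1, the channel's core subunit, was 223.54 FPKM with XY101 and 189.48 FPKM with vehicle (0.24, interval 0.20 to 0.28). SEC61B, a small subunit beside it, was 458.13 FPKM with XY101 and 435.98 FPKM with vehicle (0.07, interval -0.01 to 0.16).

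In order of level, CALR and P4HB came first in both libraries. SEC61B and HSPA5 followed, with SEC61B ahead in the XY101 library and HSPA5 ahead in the vehicle library, and these neighbours changed places between libraries. The lowest were ERO1B and EIF2AK3 in both libraries.

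The 11 members that hold an ERSE or ERSE-II did not all differ in the same direction, and ERO1B was below the filter. At a mean FPKM of at least 1, 10 of them had a median log2 ratio of -0.05, with 4 above 0 and 6 below, from -0.40 for SDF2L1 to 0.27 for CANX. Over all genes the median was 0.09, with 64.4% above 0. Relative to the median gene CANX was at 0.17, and HSP90B1 and XBP1 were at 0.01. PDIA6, HYOU1, CRELD2, HERPUD1, HSPA5, CALR and SDF2L1 lay below it, from -0.08 to -0.50. The 19 measured members with neither had a median of 0.08, with 13 above and 6 below. Among 18 other genes with an element, the median was 0.03, with 13 above and 5 below, from -0.39 to 0.33, and 0 genes of any of these sets reached 1.5-fold. FICD, which modifies BiP, was 2.16 FPKM with XY101 and 2.63 FPKM with vehicle, and SERP1, which stabilizes membrane proteins at the translocon, was 59.07 FPKM with XY101 and 51.52 FPKM with vehicle (both picked from that set after their values were seen). The core of the ROR response element, searched as AGGTCA, was found in 1 of 30 members (HSPA5, at 29 to 34 bases after the start) and in 16.5% of all genes, from which nothing is drawn about any factor.

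**Figure D3:**
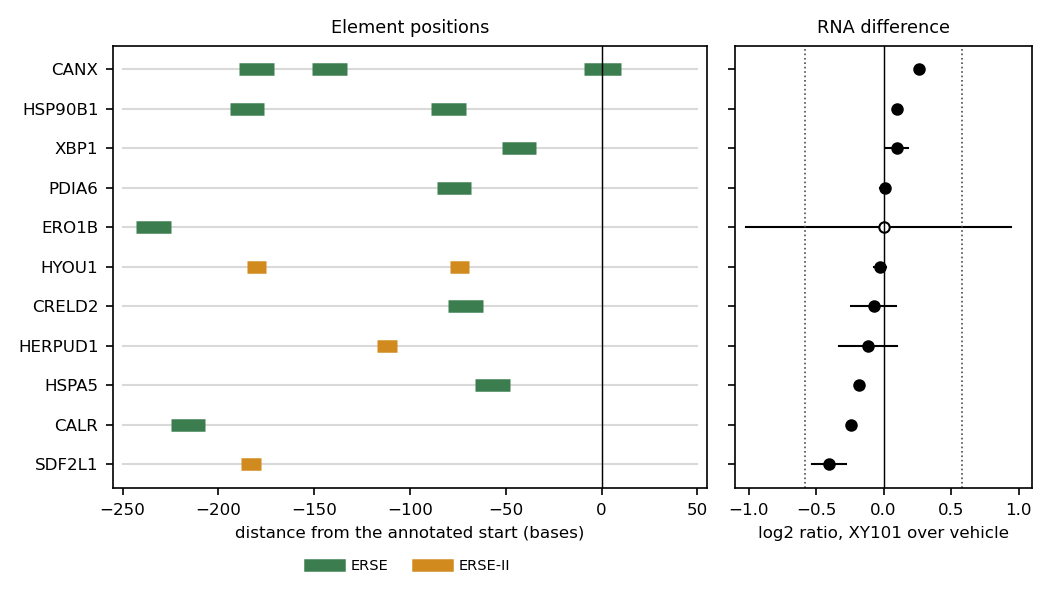
Left, positions of ERSE (green) and ERSE-II (orange) letters relative to the annotated start, in bases, for the 11 members that hold them, ordered by ratio. Right, their log2 ratio of XY101 over vehicle with approximate 95% counting intervals, 1.5-fold as dotted lines, and ERO1B open because it is below the filter. The 3 marks of CANX are 1 element seen from 3 annotated starts, and members with an element lie on both sides of 0.

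The rest of the pathway was described from 7 lists of 173 genes, of which 167 had a mean FPKM of at least 1. Of these, 0 were at least 1.5-fold higher (4.90% of all genes) and 2 at least 1.5-fold lower (2.32%), and the median was 0.10. Ratios were above 0 in 119 and below in 48, against 64.4% of all genes above 0, and 85 lay above the median gene and 82 below. The 2 were SVIP and PPP1R15A, and PPP1R15A did not reach 1.5-fold with FPKM rescaled to the same sum. When centred on the median gene, or within groups of GC content or length, DERL3 and ATF3 were also at least 1.5-fold lower. Before centring their log2 ratios were -0.57 and -0.56. SVIP, a small inhibitor of ER-associated degradation, was 2.72 FPKM with XY101 and 8.19 FPKM with vehicle, a log2 ratio of -1.56. PPP1R15A, a stress-induced phosphatase subunit that reverses PERK signalling, was 48.1 FPKM with XY101 and 72.92 FPKM with vehicle (-0.60).

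The ATF4 branch, downstream of PERK and of other kinases, had 12 of 23 measured genes above 0 and 11 below, with a median of 0.03, and 7 lay above the median gene and 16 below. PPP1R15A was the gene of this list past 1.5-fold. ATF4, the transcription factor of the branch, was 546.53 FPKM with XY101 and 529.7 FPKM with vehicle. DDIT3, which encodes CHOP, was 25.64 FPKM with XY101 and 35.52 FPKM with vehicle (-0.47), and ATF4 and DDIT3 were named after their values were seen. Among 17 genes of signalling around the sensors, 14 were above 0 and 10 above the median gene, and the median was 0.11. The largest ratio there belonged to NFE2L2, the oxidative stress factor NRF2, at 26.67 FPKM with XY101 and 19.45 FPKM with vehicle (0.45). The next was MAP3K5, a kinase recruited by IRE1, at 5.93 FPKM with XY101 and 4.74 FPKM with vehicle (0.32).

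The other lists of ER function had 0 genes at least 1.5-fold higher. Among 30 other ER folding enzymes, 15 were above 0 and 13 above the median gene, with a median of 0.01. The extremes were QSOX1, a disulfide-forming oxidase, at 154.4 FPKM with XY101 and 202.39 FPKM with vehicle (-0.39), and SERPINH1, the collagen chaperone, at 80.49 and 62.51 FPKM (0.36). Among 30 other degradation genes, 21 were above 0 and 14 above the median gene, with a median of 0.09, and SVIP was the gene at least 1.5-fold lower. Among 30 other translocation and glycosylation genes, 26 were above 0 and 20 above the median gene, with a median of 0.12, and SRP54, the signal-sequence-binding subunit, was 22.47 FPKM with XY101 and 16.17 FPKM with vehicle (0.47). SRP9, another subunit of the signal recognition particle, was 198.24 FPKM with XY101 and 147.19 FPKM with vehicle (0.43).

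ER to Golgi transport and ER-phagy, the removal of ER by autophagy, were also below the 1.5-fold call. Among 30 transport genes, 24 were above 0 with a median of 0.08, but 14 lay above the median gene and 16 below. SAR1B, the GTPase that starts COPII vesicles, was 5.63 FPKM with XY101 and 4.18 FPKM with vehicle (0.42), and SEC23A, a COPII coat subunit, was 19.95 and 16.06 FPKM (0.31). All 7 measured ER-phagy receptor genes had ratios above 0 and above the median gene, with a median of 0.29. Over all genes 64.4% were above 0. The median of this list was 0.20 relative to the median gene, 0.15 within groups of transcript length and 0.25 within groups of GC content. CCPG1, a receptor induced by ER stress, was 2.39 FPKM with XY101 and 1.65 FPKM with vehicle (0.51), and CALCOCO1 was 9.94 and 7.08 FPKM (0.48).

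**Figure D4:**
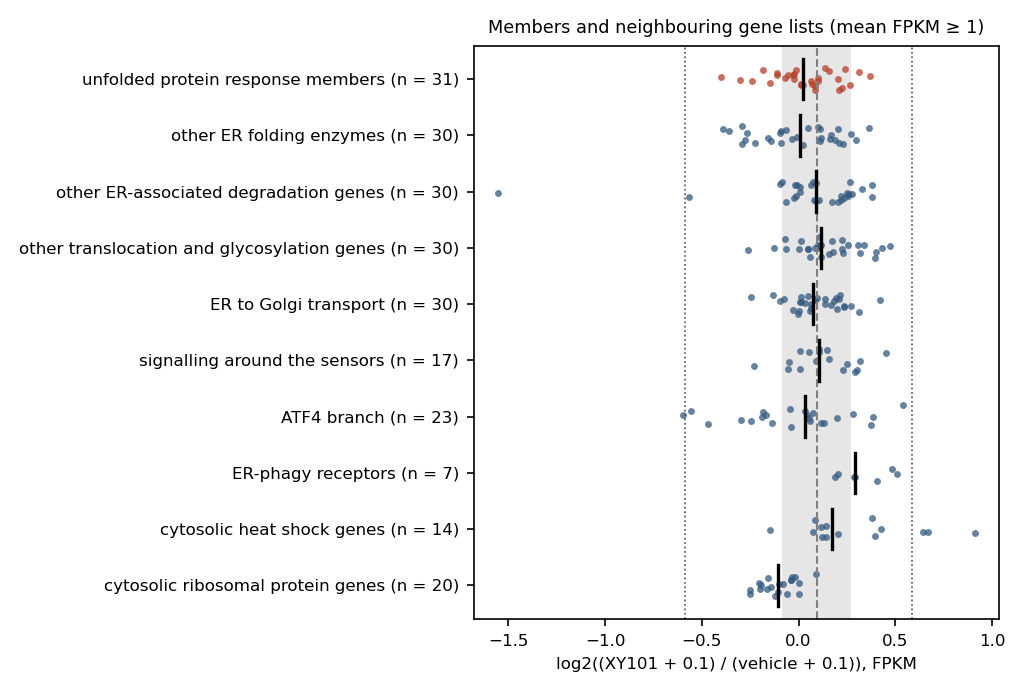
Log2 ratio of XY101 over vehicle for the 31 measured members (red) and for 9 other gene lists (blue), with list medians as black bars, the middle 50% of all genes in grey, the median gene as a dashed line and 1.5-fold as dotted lines. Members lie between -0.40 and 0.37, the single far point among degradation genes is SVIP, and 3 cytosolic heat shock genes lie beyond 1.5-fold.

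The cytosolic heat shock genes, which answer unfolded proteins outside the ER, were described beside the members. Of 14 measured, 3 were at least 1.5-fold higher, against 4.90% of all genes, and 13 had ratios above 0, with a median of 0.17. When centred on the median gene, 11 lay above 0 and 1, HSPA1A, was at least 1.5-fold higher. The cytosolic chaperone HSPA1A was 81.32 FPKM with XY101 and 43.19 FPKM with vehicle, its near-identical copy HSPA1B was 57.39 and 36.77 FPKM, and the co-chaperone DNAJA1 was 112.06 and 70.45 FPKM. How reads of HSPA1A and HSPA1B were divided is uncertain. The difference between this list and the members was not tested. The 20 cytosolic ribosomal protein genes had a median of -0.11, with 17 below 0 and 20 below the median gene.

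Ratios moved with transcript GC content and length in both the members and all genes. Over all genes, the median log2 ratio over 5 equal groups of genes by GC content was 0.18, 0.14, 0.07, 0.04 and 0.02, going from the lowest to the highest GC. Over 5 such groups by transcript length the medians were 0.00, 0.07, 0.11, 0.14 and 0.16, from the shortest to the longest. Across the 31 members, which share the same libraries, Spearman's rho of the ratio was -0.44 with GC content, 0.33 with length and -0.26 with mean FPKM. Over all genes it was -0.21, 0.18 and -0.20. Set against the median gene of the same group of GC content, the log2 ratio of SSR1 was 0.19, that of CANX 0.08, that of DNAJB9 0.13, that of HSPA5 -0.32 and that of SDF2L1 -0.42. Set against the same group of length, they were 0.21 for SSR1, 0.12 for CANX, 0.24 for DNAJB9, -0.29 for HSPA5 and -0.40 for SDF2L1. Relative to the median gene without grouping they were 0.27 for SSR1, 0.17 for CANX, 0.22 for DNAJB9, -0.27 for HSPA5 and -0.50 for SDF2L1. Beside these values, SSR1, CANX and SDF2L1 were closer to 0 in both groupings, and HSPA5 was further from 0 in both. DNAJB9 was closer to 0 by GC content and further by length. SDF2L1 was the lowest member under both, and DNAJB9 in place of SSR1 was the highest by length. The parts of GC content, length and expression level in the ratios were not tested.

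**Figure D5:**
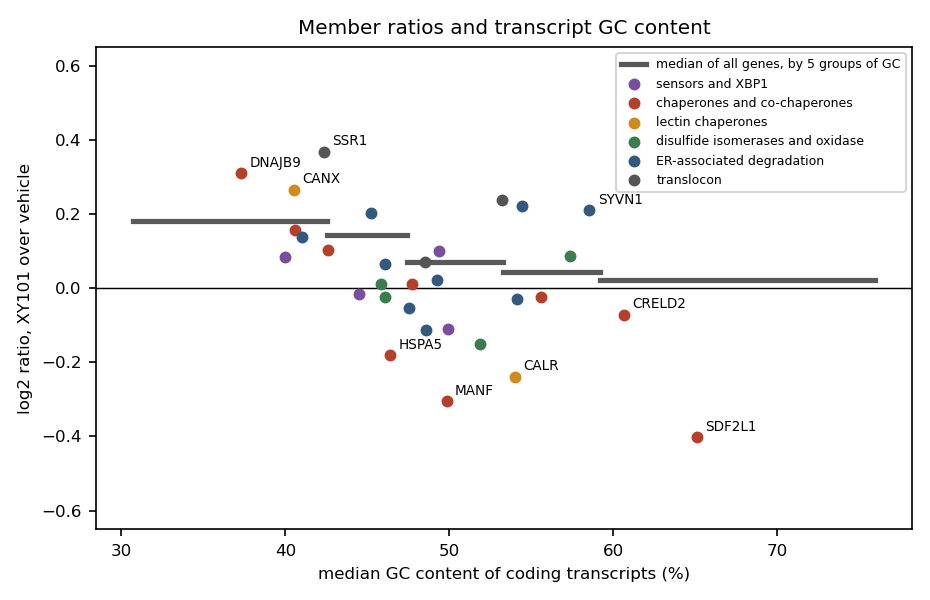
Log2 ratio of XY101 over vehicle for the 31 measured members against the median GC content of their coding transcripts, coloured by role, with the median of all genes in each of 5 equal groups by GC as grey bars. SDF2L1 is the member of highest GC and lowest ratio, and DNAJB9, CANX and SSR1, at low GC, lie above 0.

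Some values depend on how reads were shared. Exons of 11 members overlap those of a coding gene on the other strand, and without strand information those reads cannot be told apart. The largest such neighbours were MRPL49 beside SYVN1, at 91.18 FPKM with XY101 and 85.85 FPKM with vehicle, and RUVBL1 beside SEC61A1, at 59.93 and 73.37 FPKM. XBP1, HSPA5, PDIA3 and SSR1 have pseudogenes named for them, so the division of their reads is uncertain.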

How the data were processed

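Poly(A) RNA of 1 XY101 and 1 vehicle library was measured. The deposited table holds FPKM values the authors made, rounded to 2 decimals. Accounts of its making differ. The study's methods describe RSEM quantification after alignment with Bowtie 2 and BWA on GRCh37/hg19. The submitters' processing notes list limma 3.40.6, DESeq2, HTSeq 0.11.2, HISAT2 and FastQC, on GRCh38, and assign none of them a role. Of 17424 rows, 770 held no gene, which left 16654 genes. These rows also hold text in the value columns, and were left out.

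Log2 ratios used a pseudocount of 0.1 FPKM, which understates differences of low genes, and a mean FPKM of at least 1. Depth was estimated from the spacing of low FPKM of genes with a single coding transcript: 81.5% of 200 XY101 values and 84.4% of 186 vehicle values were whole within 0.2, against 40% if evenly spread. The depth and a length offset (280 bases for XY101 and 320 for vehicle) were those that made this share largest. The 40% holds for settings fixed in advance, so it is not an equal baseline. Counting intervals (exact Clopper-Pearson, 95%) used the median coding transcript of GENCODE release 44 and are approximate.

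Every member was named. Of each other list except the cytosolic ribosomal protein genes, genes at 1.5-fold were named (at most 4), or else the 2 largest ratios. DERL3 and ATF3 were also named because they reached 1.5-fold when centred, and further cell markers were named for their levels. The members and lists were chosen with earlier results of these data known. The calling step was tested on simulated libraries with set changes larger than 1.5-fold and counting noise only. That simulation held no variation between cultures, so it does not give the rate of false calls in these data. Alternatives covered the pseudocount, filter, threshold, centring, scaling and transcript length. Scripts ran in Python 3.11.15 with numpy 2.4.6, scipy 1.17.1, pandas 2.3.3 and, for plots, matplotlib 3.10.9.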

Additional observations from a re-analysis of the deposited data

How the results depend on the processing

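Of the members, 0 reached 1.5-fold in either direction under any alternative run. Within 1.25-fold lay 29 of 31 as reported, 30 of 32 with no filter and 28 of 30 at a mean FPKM of at least 5. When centred on the median gene, rescaled or set within GC groups it was 28 of 31, and within length groups 30 of 31. The share of all genes within 1.25-fold was not computed for the alternatives. The members outside were SDF2L1 and SSR1 as reported, SDF2L1, MANF and CALR when centred on the median gene, SDF2L1, DNAJB9 and SSR1 when rescaled, SDF2L1, MANF and HSPA5 within GC groups and SDF2L1 alone within length groups. The members' median log2 ratio of 0.02 was -0.0723 when centred on the median gene, 0.0643 with FPKM rescaled to the same sum, -0.0683 when centred within 5 groups of transcript GC content and -0.0392 within 5 groups of length. The GC and length settings were chosen after seeing the data. Centring on the median gene placed 11 members above and 20 below 0, and rescaling 22 above and 9 below, so the sign of members near 0 rests on the scaling. Over all genes, 534 were higher and 253 lower as reported (67.9% of calls higher), 336 and 366 when centred (47.9%), and 666 and 220 when rescaled (75.2%). They were 329 and 346 with GC groups (48.7%) and 332 and 357 with length groups (48.2%). The counts were 127 and 76 at 2-fold, 290 and 174 with a pseudocount of 1 and 1247 and 759 with no filter. At a mean FPKM of at least 5 they were 230 and 127, which was 3.01% and 1.66% of 7634 genes. With the longest coding transcript, 11 counting intervals lay wholly above 0 and 6 wholly below, and with the shortest 6 and 5. No paired analysis was possible because each group has 1 library, and for the same reason no library could be left out. A difference as small as these cannot be separated from variation between cultures, and gene-level RNA values do not directly measure sensor activation or XBP1 splicing.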

Other observations

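The members were also described by where the protein sits, in classes set after the values were seen, so no difference between them is claimed. Of the 13 members anchored in the ER membrane, 10 had log2 ratios above 0 and 3 below, against 64.4% of all genes above 0, and 6 lay above the median gene and 7 below, with a median of 0.08 and a range of -0.11 to 0.37. Of the 17 soluble members of the ER lumen, 16 had a mean FPKM of at least 1, and 7 of these were above 0 and 9 below, 4 above the median gene and 12 below, with a median of -0.02 and a range of -0.40 to 0.31. The membrane members had a median transcript GC content of 46.1% and a median length of 4167 bases, and the lumenal members 50.9% and 2802 bases, whose part in these values was not tested. XBP1 and EDEM1 were placed in neither class. ALB and CD3E, which had been listed as markers of other cells, were not analysed here.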
